A study of Mus musculus with 3 samples.

Results

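The 10 genes described here encode proteins that store, export, take up and sense iron in mouse macrophages. They were chosen by name, as Fth1, Ftl1, Slc40a1, Tfrc, Slc11a1, Slc11a2, Steap3, Ireb2, Aco1 and Ncoa4, from 55536 annotated genes, and all 10 were found in every table. Polyadenylated RNA was sequenced from bone-marrow-derived macrophages of the inbred mouse strain C57BL/6J. The labels give 1 group of 3 libraries, biological replicates 1, 2 and 3, at 0 minutes of 100 ng/ml lipid A, the membrane anchor of lipopolysaccharide and the ligand of Toll-like receptor 4. No other group was analysed here, so the data give resting levels and their spread, and no contrast. Each library has its own biosample but all share 1 donor record, sex and age were not collected, and whether the cultures came from separate animals is not given in the sources used here. The spread between replicates may therefore be partly technical.

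Macrophages take up senescent red blood cells, recover the iron of their heme, and either store it in ferritin or return it to plasma through ferroportin. Iron regulatory proteins tune this system after transcription. When iron is scarce they bind a stem-loop called the iron-responsive element. Bound near the start of a messenger RNA, as in ferritin and ferroportin, they block translation, and bound in the 3′ untranslated region (UTR), as in transferrin receptor, they protect the messenger from decay. RNA levels as measured here therefore give the supply of messenger and not the amount of protein.

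The stem-loops are shown first because they separate the members into those with a loop before the coding part, those with a loop after it and those without. The UTRs of annotation M21 transcripts were searched on the transcript strand for a bulged C, 5 bases, the loop CAGTGN and 5 bases that pair with the first 5 (G-T pairs allowed, at most 1 mismatch). Of the 10 members, 5 held such a loop in a UTR. Fth1 (chr19:9982731-9982760, plus strand, build mm10), Ftl1 (chr7:45459779-45459808, minus strand) and Slc40a1 (chr1:45925465-45925494, minus strand) held 1 each in the 5′ UTR. Capitals mark the bulged C and the 6 loop bases.
Fth1: tttcctgCttcaaCAGTGCttgaacggaac
Ftl1: tgtcttgCttcaaCAGTGTttgaacggaac
Slc40a1: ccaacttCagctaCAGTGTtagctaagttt
The Fth1 and Ftl1 windows shared 27 of 30 bases. The stem of Slc40a1 had other letters around the same loop.

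Tfrc held 4 loops in the 3′ UTR, all with a fully paired upper stem (chr16:32631218-32631247, chr16:32631597-32631626, chr16:32631662-32631691 and chr16:32631709-32631738, plus strand, mm10). Slc11a2 held 1 loop with 1 upper-stem mismatch in the 3′ UTR of transcript Slc11a2-205 (chr15:100395153-100395182, minus strand). They are shown in the same way, in transcript order, so that the repeated core of the Tfrc sites can be set beside the single Slc11a2 site.
Tfrc site 1: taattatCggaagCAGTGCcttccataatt
Tfrc site 2: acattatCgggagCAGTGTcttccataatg
Tfrc site 3: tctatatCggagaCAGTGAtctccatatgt
Tfrc site 4: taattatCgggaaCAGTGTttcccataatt
Slc11a2-205: gagccatCagagcCAGTGTgtttctatggt
Among 21901 protein-coding genes, 0.142% held a loop with no mismatch in a 5′ UTR and 0.589% in a 3′ UTR. With 1 mismatch allowed the shares were 0.941% and 3.98%, so the Slc11a2 match alone is of a kind that many genes have. Slc11a1, Steap3, Ireb2, Aco1 and Ncoa4 had no match in a UTR. A match describes the letters only and says nothing about binding in these cells.

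The libraries held 27946047, 29779380 and 53447427 expected counts in replicates 1, 2 and 3, so that a count of 0 allows up to 0.107, 0.101 and 0.0561 CPM, a count scaled for the depth of its library. Ribosomal RNA took 9.75%, 1.88% and 2.50% of the counts and mitochondrial RNA 1.84%, 2.24% and 6.98%. Levels are in TPM, which are divided by transcript length and scaled to 1 total in each library. All 12 macrophage markers reached 1 TPM in each library, led by Lyz2 and Cd68. Of the 10 erythroid markers matched, hemoglobin genes included, 0 reached that level, and together they stood at 0.04, 0.2 and 0.6 TPM, with Klf1 and Hba-a2 the highest. Among neutrophil markers 4 of 11 reached it, and the whole list summed to 195, 51.9 and 353 TPM, led by S100a9 and S100a8. Lymphoid, stromal and dendritic lists had 0 of 8, 0 of 9 and 0 of 7 at that level, and the osteoclast list 2 of 7 (Acp5 and Ctsk).

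Each of the 10 members reached 1 TPM in all libraries. TPM is a level per transcript length, so it allows genes to be compared with each other. The median of the members' mean levels was 313 TPM, against 18.6 TPM over the 10548 genes that reached 1 TPM in every library. The members covered a 1606-fold range of mean TPM, in 3 steps. The ferritin genes stood at 22501 and 27685 TPM on average, Slc40a1, Tfrc, Slc11a1 and Ncoa4 between 299 and 402 TPM, and Slc11a2, Aco1, Steap3 and Ireb2 between 17.2 and 37.5 TPM. In these bulk samples fewer cells that transcribe a gene and less RNA per cell cannot be told apart.

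**Figure D1:**
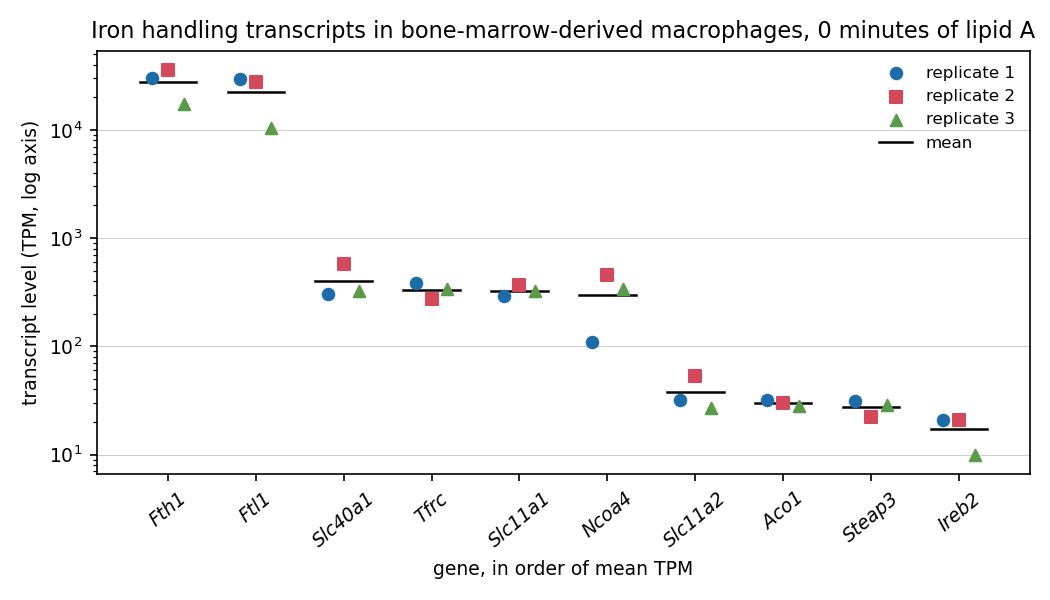
Level of each gene in TPM (log axis) in replicates 1, 2 and 3, with the mean as a line. The ferritin genes Fth1 and Ftl1 lie between 10472 and 35642 TPM in every library, and the lowest value is that of Ireb2 in replicate 3, at 9.90 TPM.

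Fth1 and Ftl1 encode the heavy and light chains of ferritin, the protein shell that stores iron. The heavy chain oxidises iron on entry and the light chain helps to build the mineral core. Fth1 (chromosome 19, 9980598 to 9985098, plus strand) stood at 29966, 35642 and 17447 TPM in replicates 1, 2 and 3, or 27685 ± 9309 TPM (SD, n = 3). Ftl1 (chromosome 7, 45457944 to 45459884, minus strand) stood at 29287, 27743 and 10472 TPM, or 22501 ± 10446 TPM. Both were lowest in replicate 3. They ranked 1 and 2 by mean TPM among 22015 nuclear protein-coding genes.

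Together the ferritin genes made up 5.93%, 6.34% and 2.79% of all TPM in replicates 1, 2 and 3 (mean 5.02% ± 1.94, SD, n = 3). As a share of counts this was 2.70% (95% Wilson interval 2.69 to 2.70), 2.88% (2.87 to 2.88) and 1.42% (1.42 to 1.43), and these intervals cover counting error only. Over nuclear protein-coding genes alone the TPM share was 7.43%, 7.36% and 3.95%, so the lower value of replicate 3 was present also with mitochondrial and ribosomal RNA left out.

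The balance of the chains differed between libraries. Fth1 over Ftl1 was 1.02 in replicate 1, 1.28 in replicate 2 and 1.67 in replicate 3 on the TPM scale, with a mean log2 ratio of 0.38 ± 0.35 (SD, n = 3). Fth1 was the higher of the 2 genes in every library, but in replicate 1 the chains were nearly level. In the kallisto-format table the ratios were 1.02, 1.29 and 1.65. Without replicate 3 the mean log2 ratio was 0.20, and without replicate 1 it was 0.55.

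Nearly all of the TPM of both ferritin genes was in the coding transcript with the loop printed above. Fth1-201 held 99.1% ± 0.22 of the TPM of Fth1, and Ftl1-201 held 99.4% ± 0.09 of that of Ftl1 (SD, n = 3). Ferritin has left processed copies across the genome, which share reads with the parents and make the split between them uncertain. A search of the transcripts for copies that were at least 90% identical over at least 50% of the parent's main transcript found 7 for Ftl1, 1 for Fth1 and 1 for Ncoa4. Ftl1-ps1, 99.6% identical over 94.0% of the Ftl1 transcript, was listed at 534, 499 and 64.6 TPM, but in the kallisto-format table at 37.2, 37.6 and 2.66 TPM. With all copies added to their parents the mean log2 ratio of Fth1 to Ftl1 was 0.36. The deposited posterior SD of the Ftl1 count was 60.9, 62.8 and 37.5 counts, against 382981, 387240 and 295632 expected counts.

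Slc40a1 encodes ferroportin, the iron exporter of the cell membrane. Slc40a1 (chromosome 1, 45908068 to 45926523, minus strand) stood at 307, 579 and 321 TPM in replicates 1, 2 and 3, or 402 ± 153 TPM (SD, n = 3). Replicate 2 was the high library, and the other 2 lay close together. On counts scaled between libraries by TMM, a method that matches the bulk of genes, the values were 599, 1082 and 806 CPM, so replicate 2 was highest on both scales. The transcript with the loop, Slc40a1-201, made up 100% of the coding TPM of Slc40a1 in every library. Coding transcripts Slc40a1-203, Slc40a1-205 and Slc40a1-206, which begin further upstream and had no match, were listed at 0 in the RSEM-format table. They are annotated as fragments of 370 to 451 bases with 210 coding bases, while Slc40a1-201 has 3370 bases. Among coding transcripts, reads from the rest of the message could only go to Slc40a1-201. The share therefore cannot tell where full-length messages began. In the kallisto-format table Slc40a1-201 held a mean of 99.9% of the coding TPM.

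Tfrc encodes transferrin receptor 1, which brings transferrin-bound iron into the endosome. Tfrc (chromosome 16, 32608920 to 32632794, plus strand) stood at 383, 275 and 340.1 TPM, or 333 ± 54.4 TPM (SD, n = 3). On gene TPM, replicate 2, the highest for the exporter, was the lowest for this receptor. Tfrc over Slc40a1 was 1.25, 0.474 and 1.06 in replicates 1, 2 and 3, with all transcripts of each gene counted. By that measure the exporter was the more abundant in replicate 2 and the less abundant in the other 2 libraries.

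The transcript tables differed on Tfrc. Coding transcript Tfrc-201, which holds the 4 loops, took 75.3%, 75.7% and 53.5% of the gene's TPM in the RSEM-format table and 95.6%, 93.3% and 78.2% in the kallisto-format table. The rest was mostly Tfrc-204, annotated as a retained intron. Tfrc-204 was listed at 89.3, 62.7 and 151 TPM in the first table and at 1.70, 3.14 and 60.6 TPM in the second. It shares the last exon and all 4 loops with Tfrc-201. In both tables its share was highest in replicate 3. Tfrc-201 stood at 288, 208 and 182 TPM in the RSEM-format table, lowest in replicate 3, and Slc40a1-201 at 296, 546 and 314 TPM. Between these coding transcripts the exporter was thus the higher in every library. In the kallisto-format table Tfrc-201 stood at 247, 174 and 236 TPM and Slc40a1-201 at 205, 376 and 290 TPM. There the exporter was the lower in replicate 1 and the higher in replicates 2 and 3.

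Steap3 encodes a ferrireductase of the endosome, which reduces the iron that transferrin delivers. Steap3 (chromosome 1, 120190757 to 120272705, minus strand) stood at 31.2, 22.4 and 28.7 TPM, or 27.5 ± 4.56 TPM (SD, n = 3). Like Tfrc it was lowest in replicate 2. Tfrc over Steap3 was 12.3, 12.3 and 11.8, and its SD of 0.030 on the log2 scale was the lowest of the 45 ratios between members, whose median SD was 0.63. This ratio was singled out after its values were seen, and it counts Tfrc-204 as Tfrc. Coding transcript Tfrc-201 stood at 288, 208 and 182 TPM in the RSEM-format table. It was thus lower in replicate 3 than in replicate 2, where Steap3 was higher, and did not keep a steady ratio to Steap3. In the kallisto-format table Tfrc-201 was lowest in replicate 2, as was Steap3.

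Slc11a1 and Slc11a2 encode related metal transporters, NRAMP1 of the phagosome and late endosome and DMT1 of the endosome. C57BL/6J mice are known to carry an amino acid substitution that impairs the Slc11a1 protein, and this was not read from the data. Slc11a1 (chromosome 1, 74375195 to 74386062, plus strand) stood at 293, 366 and 321 TPM, or 327 ± 36.95 TPM (SD, n = 3). Slc11a2 (chromosome 15, 100387898 to 100425072, minus strand) stood at 31.9, 53.5 and 27.0 TPM, or 37.5 ± 14.1 TPM. Slc11a1 was therefore the more abundant in every library, by 9.18, 6.84 and 11.9 times. Both were highest in replicate 2 on the TPM scale, but on TMM-scaled counts Slc11a1 was highest in replicate 3, at 234, 267 and 354 CPM.

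Not all of the Slc11a1 level came from full coding messages. Coding transcript Slc11a1-201 took 53.3%, 47.6% and 59.95% of the gene's TPM in the RSEM-format table. Slc11a1-206, a noncoding transcript of 378 bases at the start of the gene, took 34.2%, 40.1% and 32.4%, and 32.8%, 35.1% and 26.6% in the kallisto-format table. Because TPM divides by length, this short transcript carried only 243 expected counts in replicate 1, against 5919 for Slc11a1-201. A level of the coding message alone was 156, 174 and 192 TPM.

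Among the members with a loop in a UTR, Slc11a2 had the largest share of coding TPM in transcripts without it. For Fth1, Ftl1, Slc40a1 and Tfrc the mean share with the loop was 99.9%, 99.99%, 100% and 99.2% in the RSEM-format table. Slc11a2-205 ends in an exon at 100392563 to 100395323 that holds the loop, and Slc11a2-201 in another at 100387898 to 100389161 without it. Slc11a2-205 stood at 8.34, 15.3 and 10.6 TPM and Slc11a2-201 at 22.3, 30.4 and 11.99 TPM. The share of coding TPM from transcripts with the loop was 27.2%, 32.2% and 41.5%, or 33.6% ± 7.24 (SD, n = 3). The kallisto-format table gave 25.1%, 29.8% and 41.4%. The form with the loop was the lesser one in every library in both tables, and its share was highest in replicate 3. With no mismatch allowed in the stem the share is 0%, since the single site has 1.

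**Figure D2:**
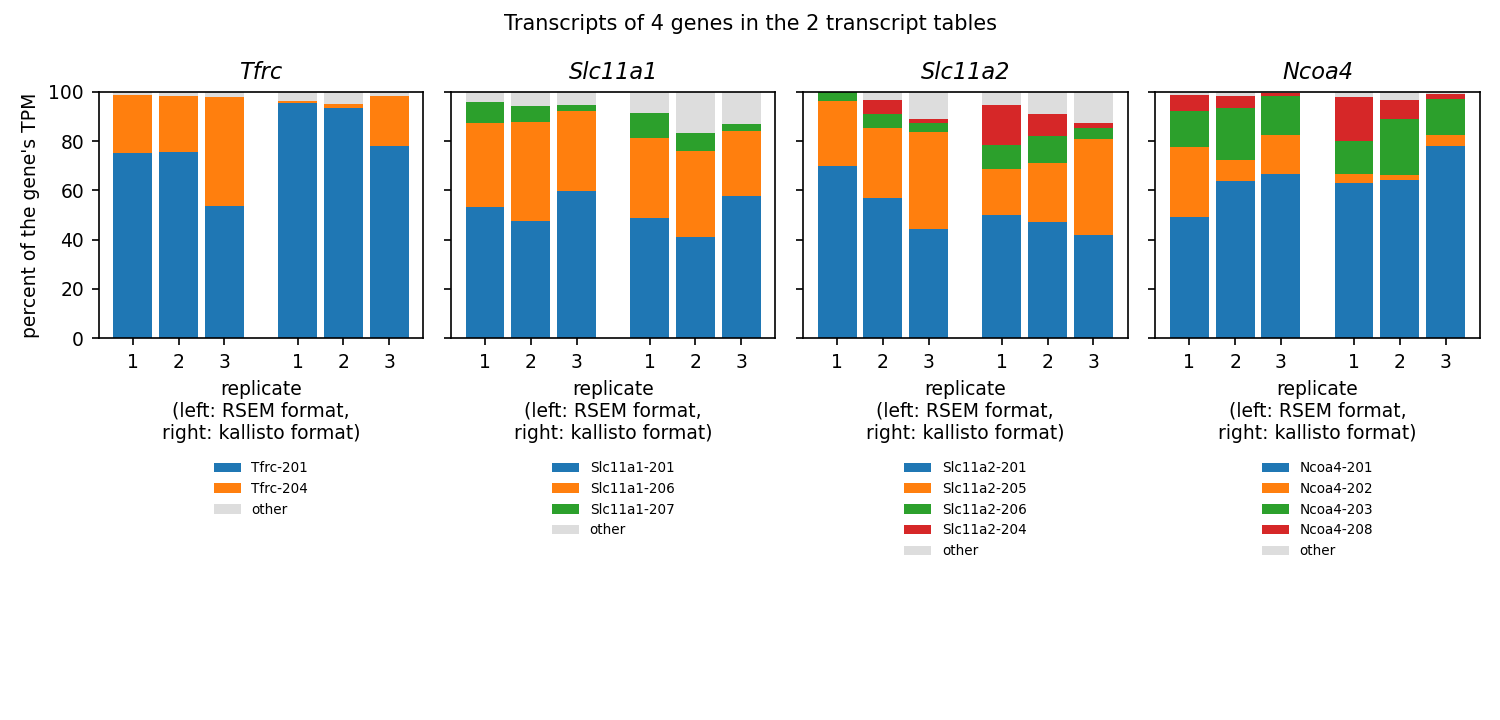
Percent of each gene's TPM (vertical axis) that went to its transcripts in replicates 1, 2 and 3, with the RSEM-format table at the left and the kallisto-format table at the right of each panel. The Tfrc-204 share differs between the tables, while Slc11a2-205 has 26.1%, 28.6% and 39.2% of all Slc11a2 TPM in the first and 18.6%, 23.95% and 38.7% in the second.

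Aco1 and Ireb2 encode the iron regulatory proteins that bind these loops. Aco1 also works as the cytosolic aconitase when it carries an iron-sulfur cluster, and Ireb2 is degraded when iron is plentiful. Aco1 (chromosome 4, 40143081 to 40198338, plus strand) stood at 31.7, 29.7 and 28.4 TPM, or 29.9 ± 1.66 TPM (SD, n = 3). Ireb2 (chromosome 9, 54863789 to 54912530, plus strand) stood at 20.8, 20.99 and 9.90 TPM, or 17.2 ± 6.35 TPM. Aco1 hardly differed between the libraries, and Ireb2 was low in replicate 3. Aco1 over Ireb2 was 1.52, 1.41 and 2.86. Aco1-201 took 99.5% ± 0.93 and Ireb2-201 97.5% ± 0.94 of the TPM of their genes.

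Ncoa4 encodes the receptor that carries ferritin to the lysosome, where its iron is released. Ncoa4 (chromosome 14, 32159865 to 32179855, plus strand) stood at 109, 452 and 335 TPM, or 299 ± 175 TPM (SD, n = 3). Replicate 1 lay far below the other 2 libraries. On TMM-scaled counts the values were 188, 669 and 735 CPM, so replicate 1 was the low library on that scale too. Fth1 over Ncoa4 was 276, 78.8 and 52.1 on the TPM scale.

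Coding transcript Ncoa4-201 carried most of the difference, at 53.4, 289 and 223 TPM. Ncoa4-202 starts further upstream and has a coding part of the same 1878 bases. Its fold between libraries was smaller in the RSEM-format table, at 31.0, 37.6 and 52.6 TPM. In the kallisto-format table Ncoa4-202 stood at 3.16, 7.41 and 14.2 TPM and Ncoa4-201 at 57.1, 217 and 253 TPM. The level of Ncoa4-202 thus depended on the table, and its fold between libraries was not smaller in the second. The short transcript Ncoa4-203 stood at 16.2, 97.1 and 53.5 TPM in the RSEM-format table.

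Spread between libraries was judged on TMM-scaled counts by the fold of the highest over the lowest library. Of the 10 members, 2 were over 2-fold apart, Ncoa4 at 3.91-fold and Ftl1 at 2.17-fold. Among 11943 genes tested the same way, 37.1% were over 2-fold apart, and the members' share was the smaller of the 2, over only 10 genes. The other 8 members lay between 1.26-fold (Aco1) and 1.81-fold (Slc40a1). The members' median was 1.61-fold and that of all genes tested 1.74-fold. A wider range than that of Ncoa4 was found in 8.11% of the genes tested, and a wider range than that of Aco1 in 86.3%.

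**Figure D3:**
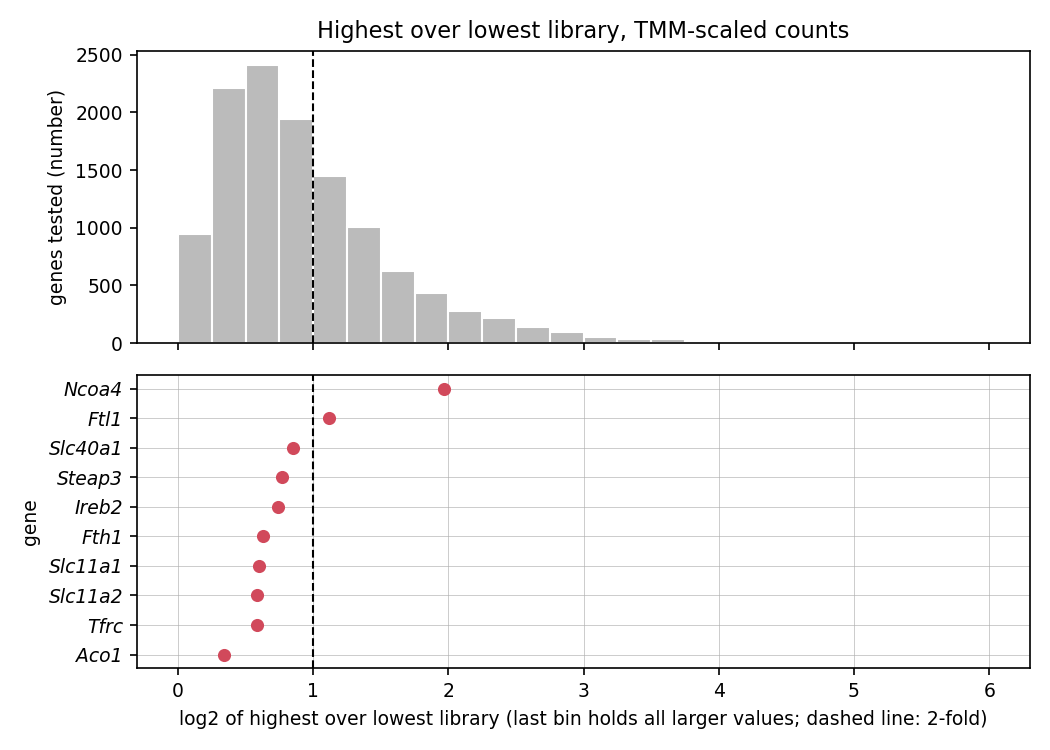
Log2 of the highest over the lowest library on TMM-scaled counts, as numbers of genes for all 11943 genes tested (top) and as a point for each member (bottom). Ncoa4 and Ftl1 lie to the right of the dashed 2-fold line, and the other 8 members to the left.

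The count depended on single libraries and on the scale. Without replicate 1 only Ftl1 remained over 2-fold, and without replicate 3 only Ncoa4, when 19.1% and 20.1% of all genes tested were. On the log2 scale of TPM with pseudocount 1 there were 4 members over 2-fold, Fth1, Ftl1, Ireb2 and Ncoa4, against 32.3% of all genes. The order of the libraries also differed between the scales. Replicate 3 was the highest library for 5 of 10 members on TMM-scaled counts, against 35.1% of all genes tested, and for 0 of 10 on the TPM scale. The share of all genes highest there on the TPM scale was not counted. Nuclear protein-coding genes held 79.8%, 86.1% and 70.8% of all TPM in replicates 1, 2 and 3. With TPM rescaled to those genes alone, Tfrc, Slc11a1, Steap3 and Aco1 were highest in replicate 3. For Tfrc, Aco1 and Steap3 this was nearly level with replicate 1, at 480.6, 40.1 and 40.6 TPM against 480.1, 39.7 and 39.2 TPM. The share of all genes highest in replicate 3 was not counted on that scale either.

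Set against the geometric mean of the other libraries, the log2 ratio of TMM-scaled counts in replicate 1 was -1.90 for Ncoa4, and 7.66% of genes tested were over 2-fold below the others in that library. Above the others by that much were 8.93% of genes and 0 members. In replicate 3 it was -1.06 for Ftl1, where 7.49% were over 2-fold below, and 1.05 for Ncoa4, where 6.77% were over 2-fold above. In replicate 2, 0 members were over 2-fold from the others, where 7.13% of genes tested were above and 7.64% below. The ratios there were highest for Ncoa4, Slc40a1 and Slc11a2, at 0.85, 0.64 and 0.57, and lowest for Steap3 and Tfrc, at -0.62 and -0.55. The summed level of 16 interferon-stimulated genes was 1481, 4558 and 1409 TPM, and all 16 were highest in replicate 2 on TMM-scaled counts, as were 30.2% of all genes tested. The summed level of 14 cell cycle genes was 1190, 247 and 502 TPM, led by Pcna and Cdk1, with 11 of 14 highest in replicate 1, as were 34.7% of all genes tested. The part of these programmes in the members' differences was not tested.

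**Figure D4:**
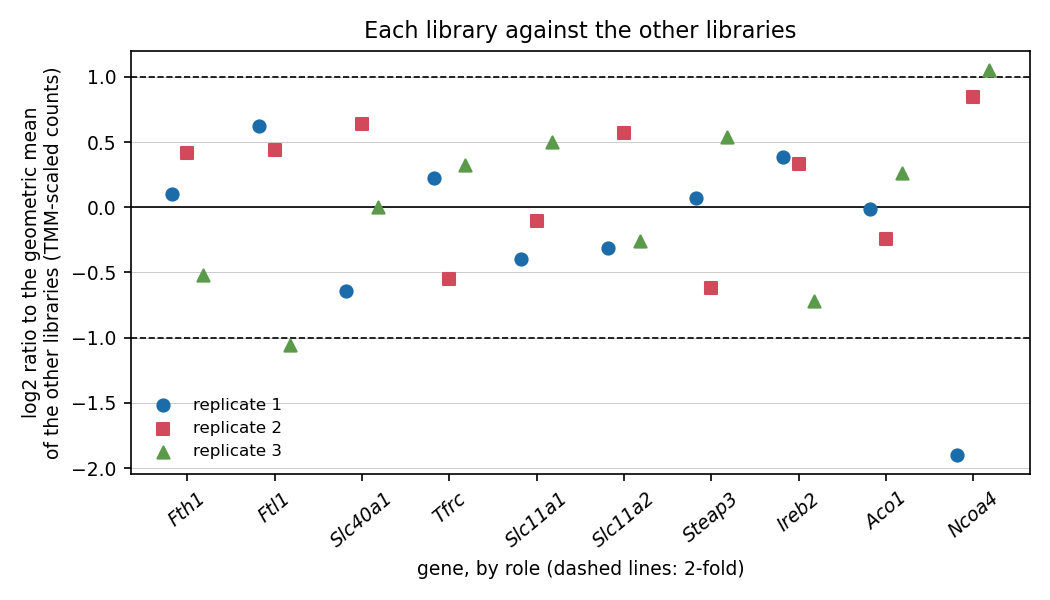
Log2 ratio of each library to the geometric mean of the others on TMM-scaled counts, for each gene in order of role. Ncoa4 in replicate 1 lies lowest at -1.90, Ftl1 in replicate 3 at -1.06, and dashed lines mark 2-fold.

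Neighbours in the order of mean TPM were told apart where their log2 ratio had 1 sign in all 3 libraries and a mean above its SD. By this rule Fth1 stood above Ftl1, Ftl1 above Slc40a1, Ncoa4 above Slc11a2, and Steap3 above Ireb2. Steap3 to Ireb2 passed narrowly, at 0.739 ± 0.734, as did Fth1 to Ftl1, at 0.38 ± 0.35 (mean log2 ratio, SD, n = 3). Slc40a1, Tfrc, Slc11a1 and Ncoa4 could not be ordered by their neighbours, nor could Slc11a2, Aco1 and Steap3. The log2 ratio of Slc40a1 to Tfrc, for example, was 0.22 ± 0.75, and that of Aco1 to Steap3 0.14 ± 0.24 (SD, n = 3). An exact sign-flip test of 3 libraries cannot go below p = 0.25 and was not used.

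Levels of all 10 members were lower in the kallisto-format table. For genes at 10 TPM or more the median ratio of that table to the RSEM-format table was 0.748, 0.754 and 0.9503 in replicates 1, 2 and 3, and for the members 0.718, 0.720 and 0.941. Klf10, a gene that is no member, was listed there at 83371, 118766 and 1613 TPM, against 25.2, 20.3 and 18.2 TPM in the gene table, and Mir6236 at 58253, 75873 and 94014 TPM, against 0 in the gene table. Klf10 was lowest and Mir6236 highest in replicate 3, where the median ratio was nearest to 1; both genes were named after their values were seen. Of the members, Slc11a2 in replicate 1 lay farthest from the median ratio of its library, with a ratio of 0.975.

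Other genes of iron and heme handling came from a list of 74 genes in 7 roles, all of which were found. Of these 52 reached 1 TPM in every library, where 9862 of 22015 nuclear protein-coding genes did, 21 were below it in every library, and 11 had 0 counts throughout. On TMM-scaled counts 18 of the 53 tested were over 2-fold apart, against the background of 37.1%. Their median was 1.73-fold.

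Of the genes for uptake, Trf was the highest, at 703, 846 and 825 TPM. It encodes transferrin, the plasma carrier of iron. The lysosomal channel gene Mcoln1 stood at 37.9, 77.7 and 50.1 TPM. The metal importer genes Slc39a8 (19.3, 7.84 and 7.74 TPM) and Slc39a14 (13.4, 4.96 and 2.43 TPM) were highest in replicate 1, while 9 of the 15 genes for uptake were below 1 TPM in every library. These included Tfr2, the second transferrin receptor, at 0, 0.12 and 0.12 TPM, and the ferritin receptors Scara5 and Timd2, which had 0 counts. Among the Steap family, Steap3 was thus the only member of the 4 listed above 1 TPM, as Steap1 and Steap2 had 0 counts and Steap4 stood at 0, 0.02 and 0.01 TPM.

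Iron chaperones were abundant. Pcbp2 and Pcbp1, which hand iron to ferritin, stood at 374, 463 and 368 TPM and at 163, 181 and 91.4 TPM. The mitochondrial ferritin gene Ftmt had 0 counts. Of the ferroxidases that act with ferroportin, ceruloplasmin (Cp) stood at 3.35, 19.4 and 15.2 TPM, and hephaestin (Heph) was at 0.01 TPM in replicate 1 and 0 in the other libraries, with Hephl1 at 0 counts. Cp was lowest in replicate 1, as was Slc40a1.

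Of the 13 genes for heme handling, 10 were at or over 1 TPM throughout, against 52 of 74 in the whole list. Hmox1, the inducible heme oxygenase that frees iron from heme, stood at 714, 307 and 482 TPM, and Hmox2, the constitutive form, at 153, 199 and 209 TPM. Lrp1, a receptor for heme bound to hemopexin, stood at 581, 264 and 306 TPM. Both Hmox1 and Lrp1 were over 2-fold apart and highest in replicate 1. Slc48a1, which moves heme out of the phagolysosome, hardly differed, at 182, 186 and 177 TPM. The hemoglobin receptor Cd163 was low, at 3.54, 2.04 and 1.46 TPM, and Flvcr2 stood at 0.07, 0.27 and 0.05 TPM.

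All 8 sensing and regulation genes passed 1 TPM in each library. Fbxl5, part of the ligase that degrades the Ireb2 protein, stood at 17.5, 19.4 and 12.8 TPM. Nfe2l2, which encodes NRF2, an activator of ferritin and heme oxygenase genes, stood at 148, 327 and 297 TPM, and its repressor gene Keap1 at 27.9, 39.2 and 19.8 TPM. Bach1, a repressor that heme inactivates, stood at 28.7, 51.2 and 25.1 TPM. Like Ncoa4, Nfe2l2 was low in replicate 1 on both scales. Hif1a stood at 44.2, 47.2 and 35.0 TPM and Epas1, the lowest of the role, at 7.50, 1.54 and 4.76 TPM.

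The hepcidin genes Hamp and Hamp2 had 0 counts in every library. Hepcidin is the hormone that removes ferroportin from the membrane. Of the 7 genes in that role only Hfe reached 1 TPM, at 29.3, 57.6 and 18.9 TPM, and the next, Erfe, stood at 0.13, 0 and 0.06 TPM. Mitochondrial genes for iron import, iron-sulfur clusters and heme synthesis passed 1 TPM throughout for 24 of 25, led by Alas1 at 139, 165 and 127 TPM. The exception was Alas2, the erythroid form of the first enzyme of heme synthesis, at 0, 0.03 and 0 TPM. The mitochondrial iron importers Slc25a37 and Slc25a28 stood at 13.9, 29.5 and 12.2 TPM and at 17.8, 20.8 and 11.2 TPM. Among the wider list, Alas2 held a loop with no mismatch in the 5′ UTR, and Bach1, Cisd2, Glrx3 and Hif1a each held a loop with 1 mismatch.

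**Figure D5:**
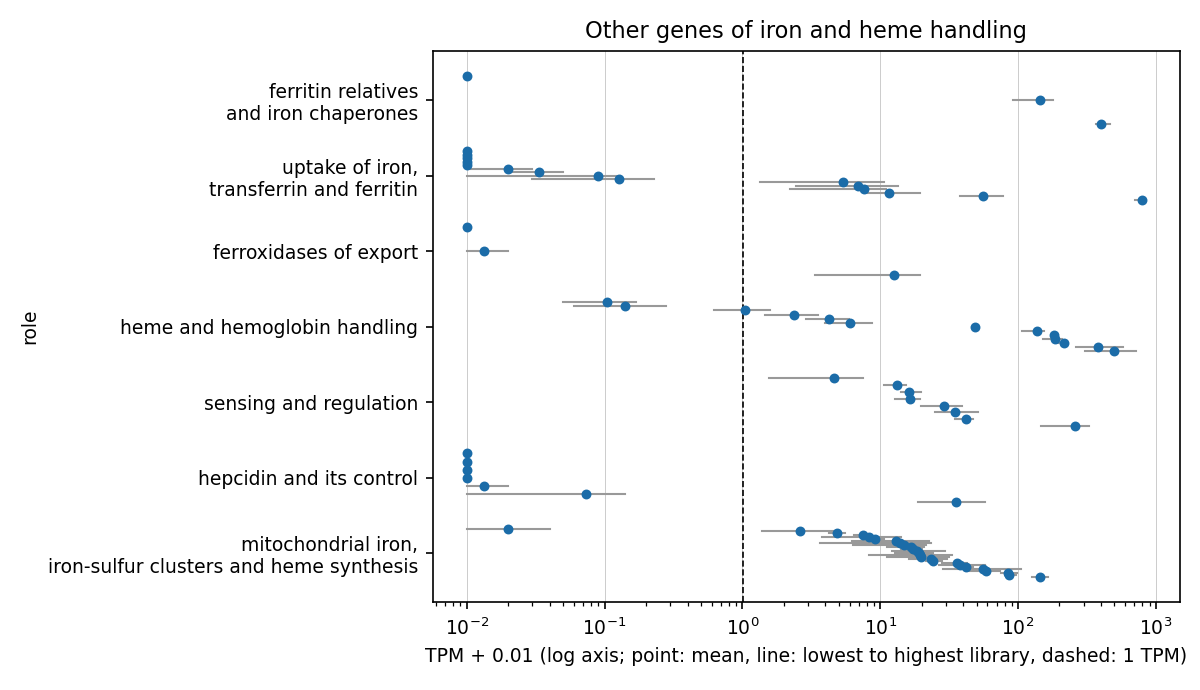
Mean TPM + 0.01 (log axis) of 74 further genes in 7 roles as points, with a line from the lowest to the highest library and a dashed line at 1 TPM. The hepcidin role lies below the line except for Hfe, while 24 of 25 mitochondrial genes lie above it.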

How the data were processed

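Gene and transcript tables of 3 libraries were analysed. Per the file headers the gene tables and 1 transcript table per library are in the format of RSEM, and the other transcript table in that of kallisto. Expected counts and estimated counts were deposited by the authors and need not be whole. TPM were deposited by the authors and are scaled after division by effective length. The posterior SD of the count was deposited as well. The deposited file lists give build mm10 and GENCODE M21. For the aligner, versions and strand setting no statement was found: they are not given in the sources used. The 26345 rows that name no gene (0.131%, 0.122% and 0.0843% of counts) were left out.

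Counts were rounded, filtered with filterByExpr and scaled by TMM in edgeR 4.0.16 (R 4.3.3), with prior count 0.5. DESeq2 1.42.0 size factors were an alternative. The fold call was tested on simulated data. Loops were read from M21 transcripts and copies were searched with BLAST 2.17.0. Python 3.11.15 did the rest. Totals were 27946047 to 53447427 counts. There was 1 group, so nothing was compared between conditions. The members and gene lists were chosen with earlier results of these data known. The rule named all members, at least the 2 highest and the lowest genes of each role, transcripts with at least 5% of a member, and the 2 highest genes of marker lists. For 1 gene of the wider list no values are given here. The ratios between members other than Fth1 to Ftl1 were chosen after values were seen.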

Additional observations from a re-analysis of the deposited data

How the results depend on the processing

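No paired analysis was possible because there is only 1 group. The number of members over 2-fold apart (2) was 4 on log2(TPM + 1), ranged from 1 to 2 when a replicate was left out, and stayed at 2 with DESeq2 size factors, kallisto-format counts, prior count 5 or no filter. The loop share of Slc11a2 (33.6%) was 0% with no mismatch allowed and 94.9% with the loop letters alone, because Slc11a2-201 holds those letters without the stem. The share of Slc40a1 (100%) was 99.9% in the kallisto-format table and 96.2% of all its transcripts. The mean log2 ratio of Fth1 to Ftl1 stayed above 0, from 0.20 to 0.55 without 1 replicate. The ferritin share of TPM ranged from 4.36% to 6.13% without 1 replicate and was 3.67% in the kallisto-format table. Mean TPM moved by more than the SD for 4 of 10 members in the kallisto-format table. The same number moved with TPM rescaled to nuclear protein-coding genes alone. The 2 full-length transcripts of Slc11a2 and the near copies were alternatives chosen after seeing the data and gave 35.8% and 0.36. With 3 libraries the SD is imprecise, and genes at 0 are limited by depth.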

Other observations

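The summed level of 10 NRF2 target genes, led by Prdx1 and Sqstm1, was 2401, 1882 and 2303 TPM in replicates 1, 2 and 3, with 7 of 10 tested genes highest in replicate 1 on TMM-scaled counts, as were 34.7% of all genes tested. Nfe2l2 itself was lowest in replicate 1, at 148 TPM against 327 and 297 TPM. The summed level of 10 hypoxia genes, led by Ldha and Pgk1, was 1152, 626 and 504 TPM, with 4 of 7 tested genes highest in replicate 1. Vegfa (17.8, 58.5 and 56.7 TPM) and Ndrg1 (15.4, 29.7 and 23.7 TPM), named after their values were seen, were lowest in replicate 1.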
